A study of Mus musculus with 5 samples.

Results

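The genes described here are 10 genes of hepcidin and iron handling, measured by bulk RNA-seq in mouse liver tumours. They are the hepcidin genes Hamp and Hamp2, the regulators Bmp6, Hfe and Tfr2, the transferrin gene Trf and its receptor Tfrc, the iron exporter gene Slc40a1 and the ferritin genes Fth1 and Ftl1. They were chosen by gene symbol, with earlier results of these data known. All 10 were found among the 55397 gene identifiers of the deposited table, and all 10 were among the 17105 genes tested.

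The tumours came from female C57BL/6N mice that received plasmids at 8 weeks of age by hydrodynamic tail vein injection, a high-volume injection that delivers DNA mainly to hepatocytes. Every mouse received Sleeping Beauty transposase with pT3-EF1a-AKT and pT3-EF1a-NICD-IRES-rtTA, so that both groups carried Akt and the active intracellular part of NOTCH. For the 3 Prox1 overexpression (Prox1 OE) tumours the mice also received pT3-Tre-FLAG-mmProx1-IRES-GFP, and for the 2 Control tumours they received pT3-Tre-IRES-GFP, which lacks Prox1. A 6.25% doxycycline diet began in both groups on day 21, which gave overexpression between weeks 3 and 4, and tumours were dissected after 1 week of it or at a humane endpoint that the labels do not assign to particular mice. The libraries are of whole tumour tissue, although the labels name the cells as transformed hepatocytes, so other liver cells contribute RNA. Fewer cells of a type and less RNA per cell cannot be told apart in such samples.

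Library totals ran from 48740863 to 56629477 reads, and values are normalised counts, that is, reads divided by a size factor of the library. Prox1, whose count includes reads from the plasmid, was at 4153 and 4664 in Control and at 48089.8, 11113 and 8231 in Prox1 OE replicates 1, 2 and 3. Its groups did not overlap, replicate 1 was far above the other two, and its log2 fold change of 1.90 had a limma adjusted p of 0.0607. Without Prox1 OE replicate 1 it was 1.12 with a limma adjusted p of 0.0056, and it also passed without replicate 3 (limma adjusted p 0.032), with the replicate block (0.0013) and with edgeR (0.047). Of 12 hepatocyte markers 11 rose and none was at 0 in a library, whereas 7 of 8 bile duct markers fell and none rose. The summed hepatocyte markers were at 918562 and 1452489.9 normalised counts in Control and at 2973796 to 4501893 in Prox1 OE.

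Hepcidin is a peptide hormone made mainly by hepatocytes. It binds the iron exporter ferroportin, the product of Slc40a1, and causes its degradation, so that less iron enters the plasma. Hepatocytes raise Hamp transcription when BMP6, made largely by sinusoidal endothelium, acts through BMP receptors and SMAD proteins, with HFE, TFR2 and hemojuvelin needed for the full response, and when IL-6 acts through STAT3. Iron uptake and storage are also set after transcription: iron regulatory proteins bind hairpins called iron responsive elements, which block translation when they lie in a 5′ UTR and protect the mRNA from decay when they lie in the 3′ UTR of Tfrc.

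Hamp and Hamp2 are neighbouring genes on the minus strand of chromosome 7, at chr7:30942368-30944032 and chr7:30922372-30924681 (GRCm38). Because the hepcidin genes had the largest changes of the 10, the 150 bases before each RefSeq start are printed, from the RefSeq promoter table (GRCm38.p6), chr7:30944030-30944179 for Hamp and chr7:30924182-30924331 for Hamp2, both read on the minus strand. The RefSeq start of Hamp2 differs from the outer end of the annotated gene above, so its window lies inside that gene's span. Capitals mark the letters of a BMP responsive element (GGCGCC) and of a STAT site (TTCNNNGAA), both of which read the same on either strand.
Hamp: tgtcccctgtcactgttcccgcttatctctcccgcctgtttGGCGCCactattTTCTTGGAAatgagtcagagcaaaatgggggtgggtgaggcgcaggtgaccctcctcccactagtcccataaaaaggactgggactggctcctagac
Hamp2: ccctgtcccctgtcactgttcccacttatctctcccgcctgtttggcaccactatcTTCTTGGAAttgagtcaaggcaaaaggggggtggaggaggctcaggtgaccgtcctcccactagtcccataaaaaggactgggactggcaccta
Over 250 bases the 2 promoters shared 227 bases of a 253-base alignment (89.7%). The Hamp window held GGCGCC 109 bases before the start and TTCTTGGAA 97 bases before it. The Hamp2 window held the same TTCTTGGAA 94 bases before its start, but at the aligned place of the BMP letters it had 1 substitution, G4A, counted from the first base of GGCGCC in Hamp. Among 27025 promoter windows of 250 bases, 9.54% held GGCGCC and 7.18% held TTCNNNGAA.

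The table had promoters for 8 of the 10 genes, with several starts for some, and none for Trf and Slc40a1. Beyond the hepcidin genes, GGCGCC was found in 1 of 2 Tfrc windows, 89 bases before the start, and TTCNNNGAA in none of the other members' windows. These matches describe the letters in the windows and were not tested as binding sites.

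The iron responsive elements of the members are printed because Tfrc changed in the opposite direction to the ferritin genes. They were found in GENCODE transcripts (GRCm38) as a loop of CAGTG and A, C or T, between 5-base arms that pair, with an unpaired C just before the first arm. Each line gives 30 bases in DNA letters, 5′ to 3′, with the loop in capitals.
Fth1, 5′ UTR, chr19:9982731-9982760, plus strand: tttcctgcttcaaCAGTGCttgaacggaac
Ftl1, 5′ UTR, chr7:45459779-45459808, minus strand: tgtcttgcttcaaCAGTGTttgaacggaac
Slc40a1, 5′ UTR, chr1:45925465-45925494, minus strand: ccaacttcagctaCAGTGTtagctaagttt
Tfrc, 3′ UTR, chr16:32631218-32631247, plus strand: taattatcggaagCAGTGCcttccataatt
Tfrc, 3′ UTR, chr16:32631597-32631626, plus strand: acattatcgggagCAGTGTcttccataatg
Tfrc, 3′ UTR, chr16:32631662-32631691, plus strand: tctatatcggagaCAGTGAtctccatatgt
Tfrc, 3′ UTR, chr16:32631709-32631738, plus strand: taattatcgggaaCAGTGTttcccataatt
Tfrc was the member with 4 such elements. Of 21207 genes scanned by the same pattern, 18 (0.0849%) had an element in the 5′ UTR and 78 (0.368%) had one in the 3′ UTR. The other 6 members had no match.

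Of the 10 genes, 6 rose (Hamp, Hamp2, Tfr2, Hfe, Fth1 and Ftl1), 2 fell (Tfrc and Bmp6), and Trf and Slc40a1 did not pass an adjusted p of 0.05 in limma. Over all genes tested 17.1% rose and 16.2% fell, or 33.3% in either direction. The groups did not overlap for 9 of the 10 members, against 63.3% of all genes tested. Of the 9, 7 were higher and 2 lower in Prox1 OE, beside 30.9% and 32.4% of all genes tested. The members' median log2 fold change was 1.01, and that of all genes tested was -0.015. Among hepatocyte markers, 11 of 12 also rose, with a median log2 fold change of 1.70.

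**Figure D1:**
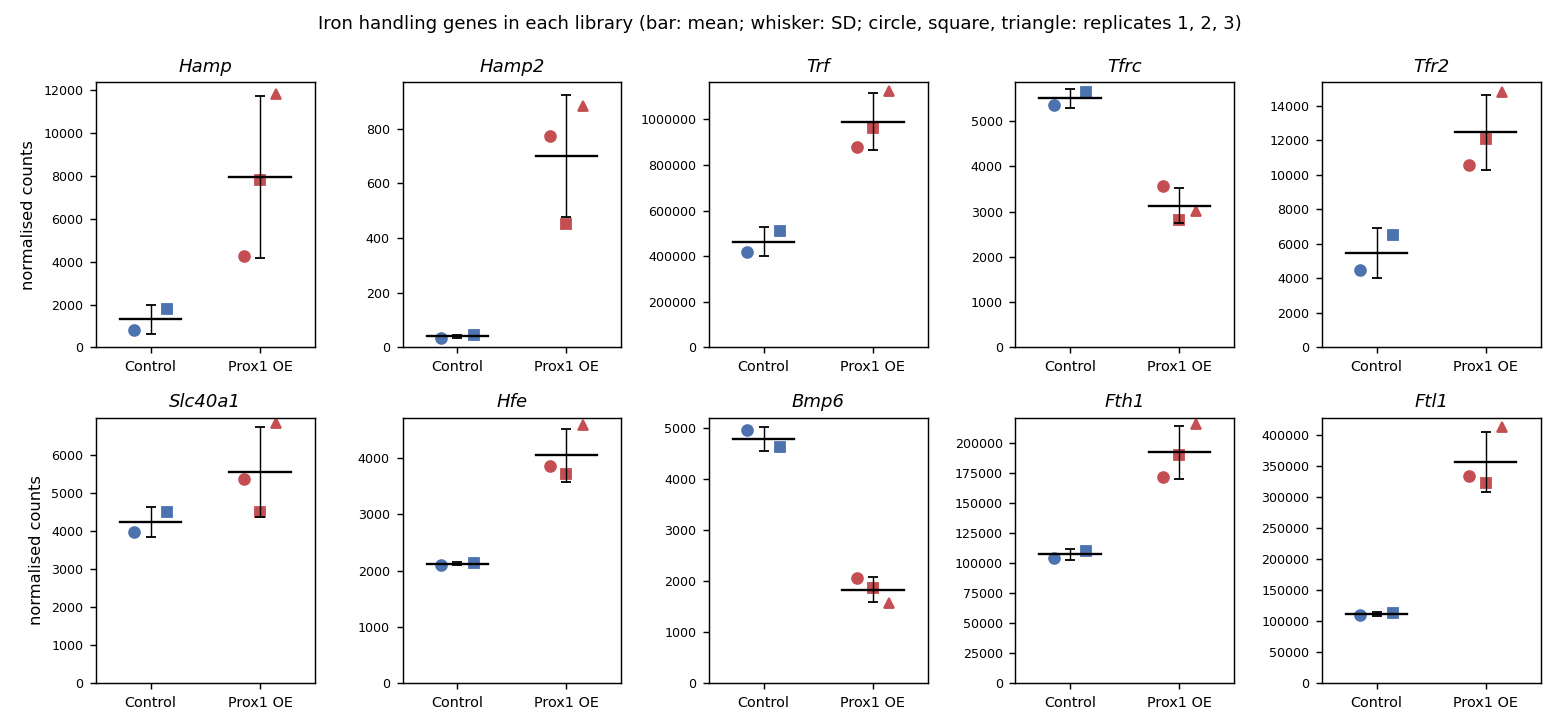
Normalised counts of the 10 genes in each library, with Control in blue and Prox1 OE in red, circle, square and triangle for replicates 1, 2 and 3, a bar at the group mean and a whisker of 1 SD. The groups are apart for every gene except Slc40a1, with Bmp6 and Tfrc lower in Prox1 OE and the other 7 higher.

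The hepcidin genes Hamp2 and Hamp had the largest changes of the 10. Hamp was at 829.8 and 1787 normalised counts in Control replicates 1 and 2, and at 4242, 7790.2 and 11789 in replicates 1, 2 and 3 of Prox1 OE. The groups did not overlap, and the spread within each group was wide (1308 ± 677, SD, n = 2, against 7940.4 ± 3775, SD, n = 3). The ratio of the means was 6.07, and limma gave a log2 fold change of 2.58 ± 0.45 (SE; adjusted p 0.00621). Without Control replicate 1 the log2 fold change was 2.03 and the limma adjusted p 0.057.

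Hamp2, the second mouse hepcidin gene, is not thought to act on iron in the way Hamp does. It was at 36.1 and 44.1 normalised counts in Control and at 771, 451 and 881 in Prox1 OE. Control was low and even, and replicate 2 was the lowest of the Prox1 OE libraries. The ratio of the means was 17.5, and limma gave a log2 fold change of 4.04 ± 0.30 (SE; adjusted p 0.0014). This call held in each of 16 alternative settings.

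The hepcidin genes did not keep one ratio across libraries. Hamp2 made up 4.17% and 2.41% of the summed reads of both genes in Control, and 15.4%, 5.47% and 6.95% in Prox1 OE. Prox1 OE replicate 1 had the largest share of Hamp2 and, of its group, the lowest Hamp. The log2 ratio of Hamp2 to Hamp was 1.46 higher on average in Prox1 OE, with an exact two-sided permutation p of 0.2, where 2 against 3 libraries cannot give a p below 0.1. It was 0.97 without Prox1 OE replicate 1 and 1.87 without Control replicate 1. Counts of the pair are uncertain where reads were split between copies: their transcripts shared 388 bases of a 437-base alignment (88.8%), with a longest identical run of 87 bases.

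The genes with the profiles most like Hamp and Hamp2 were then listed. Likeness was the root mean square difference over the 5 libraries between log2 values, each gene centred on its own mean, among 12969 genes. The genes closest to Hamp were Clec4g (0.12), a lectin of sinusoidal endothelium, Aspdh (0.15), the tyrosine breakdown enzyme gene Hpd (0.16) and the serpin gene Serpina3f (0.17). Those closest to Hamp2 were Gm13775 (0.39), the cystatin gene Cst8 (0.46), the major urinary protein gene Mup21 (0.58) and the cytochrome P450 gene Cyp2b13 (0.62), of which the last 2 have close copies. Hamp stood at rank 63 of the list for Hamp2, and Hamp2 at rank 1128 of the list for Hamp.

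**Figure D2:**
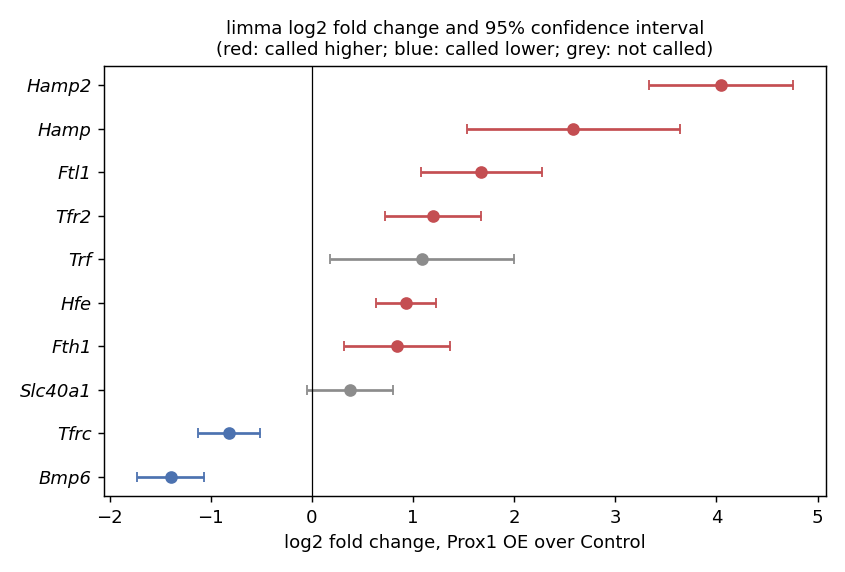
Log2 fold change of Prox1 OE over Control for each gene, with its 95% confidence interval from limma, in red where called higher, blue where called lower and grey where not called. Hamp2 and Hamp lie farthest right at 4.04 and 2.58, and Bmp6 farthest left at -1.40.

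Among the members that signal to hepcidin, Bmp6 fell while Hfe and Tfr2 rose. Bmp6 (chr13:38345107-38500302), the main BMP ligand for hepcidin in the liver, was at 4955 and 4617 normalised counts in Control and at 2060.3, 1859.6 and 1562 in Prox1 OE. The groups were far apart and the replicates close. The ratio of the Control mean to the Prox1 OE mean was 2.62, and limma gave a log2 fold change of -1.40 ± 0.14 (SE; adjusted p 0.00234), a call that held in each of 16 alternative settings.

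BMP6 in normal liver comes largely from sinusoidal endothelium, and no marker of that cell type was called lower. Of 12 such markers 5 rose, with a median log2 fold change of 0.52, and none was at 0. Their summed level ranged from 13976 to 17868 normalised counts in Control and from 20634 to 26708 in Prox1 OE. The largest change among them was that of Clec4g, at 283 and 565 in Control against 1629, 2551 and 3537 in Prox1 OE, and the scavenger receptor gene Stab2 had a log2 fold change of 1.04. Lyve1, also a sinusoidal marker, had the lowest value of the list (-0.53), was at 1268 and 1922 in Control against 1075, 759 and 1538 in Prox1 OE, and was not called. The general endothelial genes Pecam1 and Cdh5 had log2 fold changes of -0.27 and -0.33 and were not called. Markers of other cell types did fall beside Bmp6. The 8 bile duct markers, 7 of them lower, had a median log2 fold change of -1.14. Their summed level was 764276 to 833262 normalised counts in Control against 526039 to 710305.2 in Prox1 OE. Most of that sum was Spp1, the marker not called (-0.34), at 784749 and 712010 in Control and at 587974, 688825 and 509317 in Prox1 OE. The sum therefore says little about the other markers. Of 10 stellate cell and fibroblast markers 3 fell, the collagen genes Col1a1 (-1.23), Col1a2 (-0.95) and Col3a1 (-0.66). The stellate cell genes Lrat (1.09) and Reln (0.55) rose, and the others were not called, with a median of -0.15 and none at 0. The summed level of the list, most of it from the 3 collagen genes, was 116034 to 123839 in Control against 70597 to 81141 in Prox1 OE. The part of these cells in the fall of Bmp6, and which cells of the tumours expressed it, was not tested.

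Hfe (chr13:23702034-23710854), whose product binds transferrin receptor 1 and takes part in iron sensing, was at 2105 and 2139 normalised counts in Control. It was at 3858, 3719 and 4597 in Prox1 OE, all above Control. In limma its log2 fold change was 0.93 ± 0.13 (SE; adjusted p 0.00324), and it held in each of 16 alternative settings.

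Tfr2 (chr5:137569840-137587481), the hepatocyte's sensor of iron-loaded transferrin, was at 4459 and 6482 normalised counts in Control and at 10539, 12046 and 14809 in Prox1 OE. The groups did not overlap, and Control replicate 1 was the lowest library. In limma its log2 fold change was 1.20 ± 0.20 (SE; adjusted p 0.00565). Without Control replicate 1 it was 0.93 with a limma adjusted p of 0.063.

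Of transferrin and its high-affinity receptor, only the receptor gene passed the test. Trf (chr9:103204001-103230444), which encodes the plasma iron carrier, was at 418707 and 509689.9 normalised counts in Control and at 881063, 961123 and 1126553 in Prox1 OE. The groups did not overlap and the ratio of the means was 2.13, yet the log2 fold change of 1.09 (95% confidence interval 0.18 to 2.00) had a limma adjusted p of 0.0659. It passed with edgeR (adjusted p 0.011) and with DESeq2 (adjusted p 7.9e-09) on recovered reads.

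Tfrc (chr16:32608920-32632794), the receptor by which dividing cells take up transferrin iron, was at 5356 and 5649 normalised counts in Control and at 3559, 2819 and 3019.5 in Prox1 OE. Every Prox1 OE library was below both Control libraries. The Prox1 OE mean was 56.9% of the Control mean, and limma gave a log2 fold change of -0.82 ± 0.13 (SE; adjusted p 0.00478). Without Control replicate 1 the log2 fold change was -0.86 and the limma adjusted p 0.051.

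The proliferation markers moved in the same direction as Tfrc, with 9 of 10 lower, none higher and a median log2 fold change of -0.75. Their summed level was 41489 to 59095 normalised counts in Control and 24120 to 31626 in Prox1 OE, and their part in the fall of Tfrc was not tested. Within each library, Tfr2 was 0.833 and 1.15 times Tfrc in Control, and 2.96, 4.27 and 4.90 times Tfrc in Prox1 OE. Hfe was 0.393 and 0.379 times Tfrc in Control, and 1.08, 1.32 and 1.52 times Tfrc in Prox1 OE. Both ratios compare normalised counts not divided by length. Since Tfr2 and Hfe were higher in every Prox1 OE library and Tfrc lower, both ratios were bound to be apart between the groups.

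Slc40a1 (chr1:45908068-45926523), which encodes ferroportin, the target of hepcidin, was at 3954 and 4502 normalised counts in Control. It was at 5359.9, 4482 and 6823 in Prox1 OE, so that Prox1 OE replicate 2 lay between the Control libraries. The log2 fold change of 0.38 (95% confidence interval -0.051 to 0.80) had a limma adjusted p of 0.149. Leaving out replicate 3 of Prox1 OE gave 0.22 and leaving out its replicate 2 gave 0.52, neither of them called. Scaling by the total count turned it to -0.056 and moved the median over all genes to -0.44. Ferroportin is controlled by hepcidin as a protein, which these libraries do not measure.

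Ferroportin and ferritin are also made by liver macrophages. Of 12 Kupffer cell and macrophage markers 6 rose and none fell, with a median log2 fold change of 0.88 and none at 0. Their summed level was 35978 and 36013 normalised counts in Control and 54436 to 69823 in Prox1 OE, and their part in the values of Slc40a1, Fth1 and Ftl1 was not tested.

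Both ferritin genes rose, and the light chain rose by more. Ftl1 (chr7:45457944-45459884), the subunit that aids iron mineral formation inside the ferritin shell, was at 108856 and 113058 normalised counts in Control and at 333830.1, 322864 and 412473 in Prox1 OE. The replicates of a group were close and the groups far apart. The ratio of the means was 3.21, and limma gave a log2 fold change of 1.68 ± 0.26 (SE; adjusted p 0.00411).

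Fth1 (chr19:9980598-9985098), the subunit that oxidises iron for storage, was at 104102 and 110436 normalised counts in Control and at 171362, 190433 and 215593 in Prox1 OE. These groups did not overlap either. In limma its log2 fold change was 0.84 ± 0.22 (SE; adjusted p 0.0264), the weakest call of the 8. Without Control replicate 1, Control replicate 2 or Prox1 OE replicate 2 the Fth1 fold changes were 0.79, 0.88 and 0.84 with limma adjusted p-values of 0.26, 0.18 and 0.06. The limma adjusted p of Ftl1 was 0.09 without Control replicate 1 and 0.062 without Control replicate 2.

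The balance of the subunits was even within a group. Ftl1 was 1.05 and 1.02 times Fth1 in Control, and 1.95, 1.70 and 1.91 times Fth1 in Prox1 OE, in normalised counts. The log2 ratio was 0.84 higher in Prox1 OE, with an exact two-sided permutation p of 0.1, the smallest that 2 against 3 libraries can give. Ferritin light chain has near-identical copies. Ftl1-ps1 was at 94.5 and 101 in Control and at 240.3, 291 and 317 in Prox1 OE, and Ftl1-ps2 at 20.5 and 22.0 against 70.6, 83.8 and 96.1, so the split of reads between them is uncertain.

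**Figure D3:**
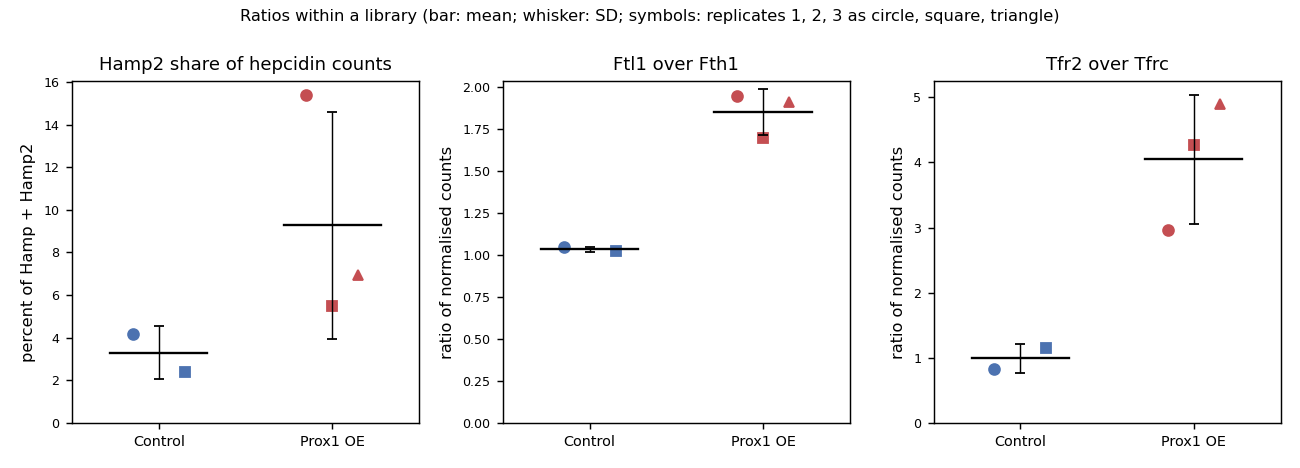
Ratios formed within each library, which do not depend on the scaling between libraries: Hamp2 as a percent of Hamp plus Hamp2, Ftl1 over Fth1 and Tfr2 over Tfrc, with a bar at the group mean and a whisker of 1 SD. All 3 ratios are apart between the groups, which for Tfr2 over Tfrc follows from the separation of its genes in opposite directions. Ftl1 over Fth1 is near 1.02 to 1.05 in Control and 1.70 to 1.95 in Prox1 OE.

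Levels were compared between genes per kilobase of the principal transcript. In Control the order of mean normalised counts per kilobase was Trf (180552), Fth1 (115467), Ftl1 (114625), Hamp (3191), Tfr2 (1869.7), Bmp6 (1332), Slc40a1 (1255), Tfrc (1125), Hfe (594) and Hamp2 (91.8). Neighbours whose library values overlapped were Fth1 and Ftl1, Hamp and Tfr2, and Bmp6 and Slc40a1. In Prox1 OE the order was Trf (384901), Ftl1 (368170.4), Fth1 (207172), Hamp (19367), Tfr2 (4260.03), Slc40a1 (1648), Hamp2 (1604), Hfe (1136), Tfrc (641) and Bmp6 (509). There Trf overlapped with Ftl1, and Hamp2 overlapped with both Slc40a1 and Hfe, which did not overlap with each other. Bmp6 moved from rank 6 to rank 10, and Hamp2 from rank 10 to rank 7.

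Because 11 of 12 hepatocyte markers rose, each gene was also set against them within its library, as its log2 value minus the mean log2 value of the 12 hepatocyte markers. That mean was itself 1.59 higher in Prox1 OE. On this scale Hamp2 was 2.45 higher and Hamp 0.99 higher in Prox1 OE, each with the groups apart and an exact two-sided permutation p of 0.1, the smallest possible. The fold changes of the single markers ran from 0.41 to 2.72 on the log2 scale, so that of Hamp (2.58) lay within their range and that of Hamp2 (4.04) above it. Only Tat (2.72) was above Hamp, and the next marker down was Apoc3 (1.96). Set against Alb alone, Hamp was 0.89 higher with overlapping groups (exact permutation p 0.3) and Hamp2 was 2.35 higher (exact permutation p 0.1).

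None of the other 8 genes was clearly above the hepatocyte markers. Ftl1 differed by 0.083 (exact permutation p 0.8), with overlapping groups and a range of -0.22 to 0.39 when 1 library at a time was left out. Tfr2, Trf and Hfe were at -0.39, -0.50 and -0.66 relative to the markers, each with an exact permutation p of 0.2. Their groups were also apart, narrowly for Trf and Hfe. Leaving out 1 library gave ranges of -0.69 to -0.31 for Trf, -0.98 to -0.34 for Hfe and -1.04 to -0.47 for Fth1, with the smallest differences without Control replicate 1. Fth1, Slc40a1, Tfrc and Bmp6 were at -0.75, -1.22, -2.41 and -2.99, each with groups apart and the smallest exact permutation p of 0.1.

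**Figure D4:**
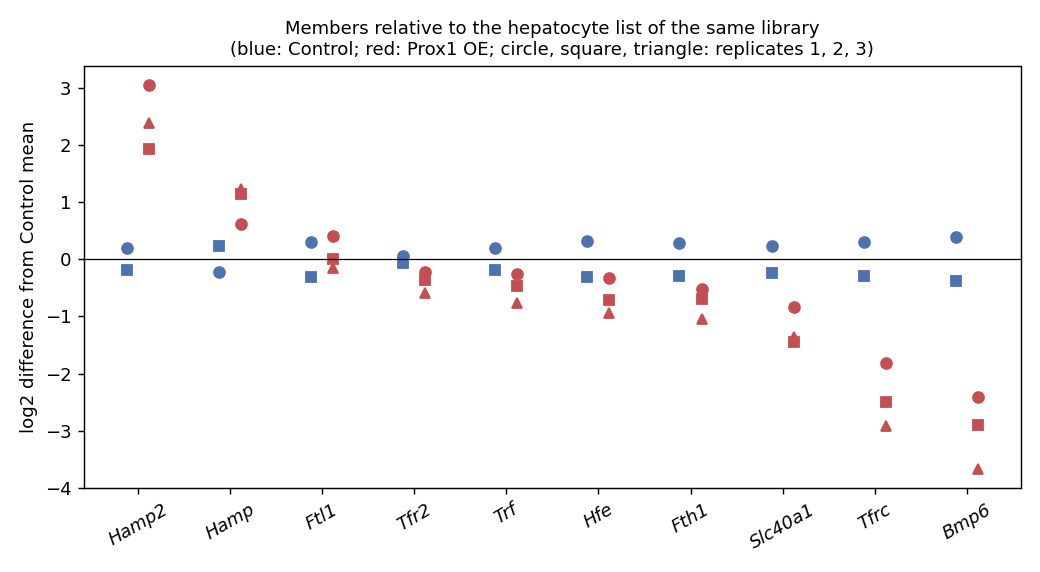
Log2 value of each gene minus the mean log2 value of 12 hepatocyte markers in the same library, drawn as the difference from the Control mean (blue Control, red Prox1 OE, symbols by replicate). Hamp2 and Hamp lie above 0 in all Prox1 OE libraries, Ftl1 straddles 0, and Tfrc and Bmp6 lie lowest.

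Other genes of the pathway were described from 7 lists by role, of which 106 of 110 genes could be tested. Over all 7 lists 37 genes rose and 13 fell, beside 17.1% and 16.2% of all genes tested, with a median log2 fold change of 0.36. Scaled by the total count, 16 rose and 31 fell, and over all genes tested the shares likewise moved to 8.62% and 39.9%. The numbers were 8 and 2 without Control replicate 1, and the shares over all genes 3.98% and 2.79%. Of 26 pathway genes named by size of change, 8 kept their call in all 16 alternative settings (Hfe2, Tmprss6, Creb3l3, Inhbb, Cybrd1, Blvrb, Slc46a1 and Abcb6). Of the 26, 17 lost it without Control replicate 1 and 12 without Control replicate 2. Per-gene values below are log2 fold changes, with limma adjusted p-values under 0.05 wherever a gene is said to have risen or fallen.

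In the BMP and SMAD list, 2 of 24 genes tested rose and 6 fell, with a median of -0.21. The 2 that rose are made by hepatocytes. Hfe2, which encodes the BMP co-receptor hemojuvelin, went from 1945 and 2696 normalised counts to 8782, 7532 and 9501 (1.90, limma adjusted p 0.0019), and Tmprss6, whose protease removes hemojuvelin from the surface, had a value of 1.29. The ligand gene Bmp2 was at 259 and 377 normalised counts in Control and at 429, 553 and 803 in Prox1 OE, with groups apart and no call (0.88, limma adjusted p 0.0505). The largest fall was that of Erfe, which encodes erythroferrone, a suppressor of hepcidin, from 146 and 115 normalised counts in Control to 44.0, 41.3 and 22.0 in Prox1 OE (-1.89, limma adjusted p 0.00892). The genes that fell also included the receptor genes Bmpr1a (-0.64) and Bmpr2 (-0.46), the signal carrier Smad4 (-0.58) and the inhibitory Smad7 (-0.62). Smad7, Id1, Smad6 and Atoh8 are targets of BMP signalling. Id1 was at 2822 and 2439.6 in Control and at 2711, 3365 and 2989 in Prox1 OE, with overlapping groups and no call. Atoh8 (0.84, limma adjusted p 0.0694) and Smad6 (0.33, limma adjusted p 0.31) were not called either, with every Prox1 OE library above Control.

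In the list for IL-6 and STAT3, 2 of 10 genes rose and 2 fell, shares near those of all genes tested, with a median of -0.34. Creb3l3, a hepatocyte factor able to act on the Hamp promoter, rose by 1.40, and Cebpa, a hepatocyte factor needed for Hamp expression, by 0.66. Inhbb, which encodes a subunit of activin B, fell by 1.68. Stat3 was at -0.42 (limma adjusted p 0.0236), a call that was lost with the replicate block (limma adjusted p 0.057), without the trend (0.059) and when any of 4 of the 5 libraries was left out. The call of Cebpa was lost in 5 of 16 settings. Il6 was at 18.1 and 11.0 normalised counts in Control and at 6.13, 11.8 and 3.47 in Prox1 OE, with overlapping groups.

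In the uptake and transport list, 4 of 17 genes rose and 4 fell, shares near those of all genes tested, with a median of -0.12. The phagosomal iron transporter gene Slc11a1, the scavenger receptor gene Lrp1 and the ferrireductase gene Steap3 rose by 0.84, 0.78 and 0.73. Their calls were lost in 3, 2 and 2 of 16 alternative settings. Cybrd1, the duodenal type ferrireductase, had the largest change of any pathway gene, from 904 and 955 normalised counts in Control to 129.9, 56.6 and 38.2 in Prox1 OE (-3.80, limma adjusted p 0.00261). Steap1 and Slc22a17 had values of -0.95 and -0.89, with limma adjusted p-values of 0.0494 and 0.0338. The call of Steap1 was lost in 8 of 16 alternative settings, TMM scaling (adjusted p 0.051) and edgeR (0.064) among them, and that of Slc22a17 in 5.

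Among 8 genes tested of the list for iron storage and iron regulatory proteins, which also held Epas1 and Skp1a, 1 rose and none fell, with a median of 0.076. Aco1, which encodes iron regulatory protein 1, had a value of 0.41 (limma adjusted p 0.0411), which scaling by the total count turned to -0.018, and it lost its call in 7 of 16 alternative settings. Ireb2, for iron regulatory protein 2, and Fbxl5, for the ligase that removes it, were at -0.26 and -0.27 and were not called. Ftmt, the mitochondrial ferritin gene, was at 0 in every library.

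The lists with the most genes rising were those for heme and mitochondrial iron, though their medians lay below the 1.70 of the hepatocyte markers. In heme synthesis 6 of 9 genes rose and none fell (median 0.66), led by Alas2 (1.34), the erythroid first enzyme, Alas1 (1.04), its general counterpart, and Alad (0.93). Alas2 also had a match to the iron responsive element in its 5′ UTR. In heme recycling 7 of 14 rose and 1 fell (median 0.73), with Blvrb, Hpx and Slc46a1 at 1.44, 1.25 and 1.21 and the heme exporter gene Flvcr1 at -0.76. For mitochondrial iron and iron-sulphur clusters 15 of 24 rose and none fell (median 0.56), led by Abcb6 (1.55), Cisd1 (1.17) and Glrx5 (1.11).

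Erythroid markers are given beside these genes, since red cells make heme. Of 7 tested 1 rose, the factor gene Klf1, with a median log2 fold change of 0.91, and their summed level was 3801 to 6804 normalised counts in Control and 6805 to 15192 in Prox1 OE. Gata1 was at 0 in 4 of 5 libraries and Slc4a1 in 1. The part of red cells in the values of Alas2 was not tested.

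**Figure D5:**
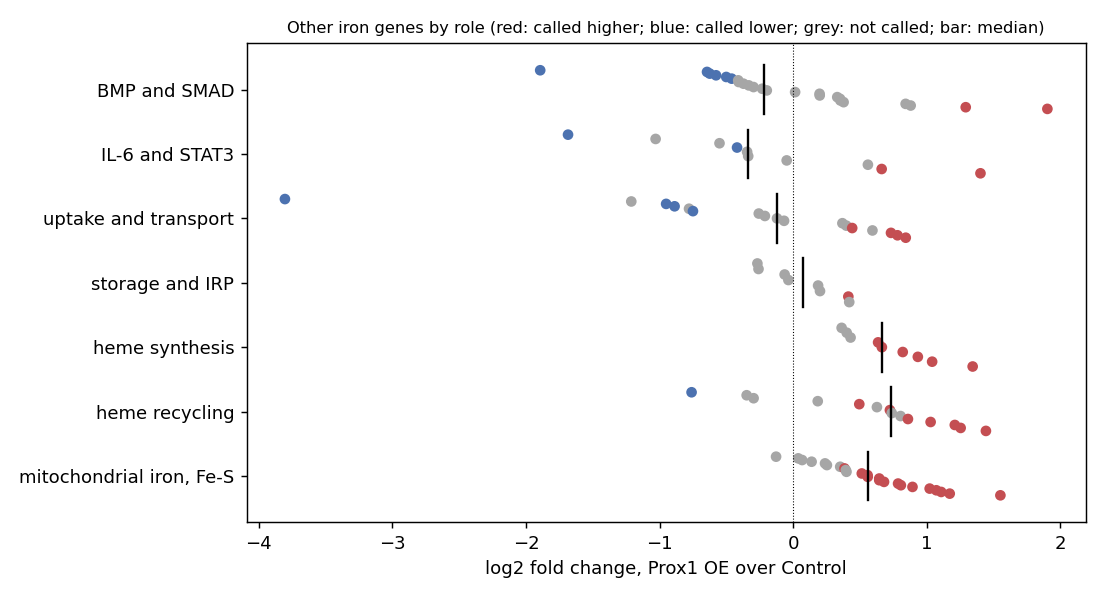
Log2 fold change of Prox1 OE over Control for each tested gene of the 7 pathway lists, red where called higher, blue where called lower, grey where not called, with a black bar at the list's median. Medians lie at 0.56 to 0.73 for the heme and mitochondrial lists and at -0.34 to 0.076 for the others.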

How the data were processed

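Tumour RNA had been sequenced by the authors as 100-base read pairs from strand-preserving (dUTP) libraries and, per the submitters' processing notes, mapped to mm10 with STAR. The counting tool is not given in the sources used here. The deposited values are a signal per gene and library, namely counts divided by a DESeq2 size factor. Every value was a whole multiple of 1 read (0.822 to 1.18 normalised counts) within 0.01, so whole reads were recovered for 100% of values. A second deposited table, with the authors' mean, shrunken log2 fold change, p-values and adjusted p-values with and without independent hypothesis weighting, was not used. Counting error only is covered by these totals.

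limma 3.58.1 (R 4.3.3; lmFit, eBayes with a trend) was run two-sided on log2(normalised count + 1) of all 5 libraries, with no covariate, for the 17105 genes with a mean of at least 10, adjusted by Benjamini-Hochberg, and called at 0.05. This scale understates changes of low genes. Single ratios were tested by an exact permutation test over libraries. On recovered reads, edgeR 4.0.16 called 5761 genes and DESeq2 1.42.0 called 6647, against 5702 with limma. The other alternatives were other scalings (TMM, upper quartile, total count), pseudocounts of 0.1 and 10, no filter or a mean of at least 50, no trend, a replicate block and leaving out each library. Scripts were tested on simulated data. Replicates are separate samples per the labels, which do not say that each is another mouse, so p-values measure the spread between these samples.

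The members and lists were chosen with earlier results of these data known. Genes named beyond the members were Prox1, marker genes, in each pathway list up to 3 genes per direction with the largest change and a mean of at least 100, and the 4 genes most like Hamp and Hamp2. Erfe, Bmp2, Bmpr2, Atoh8, Smad6, Ireb2, Fbxl5, Id1, Il6, Ftmt and the ferritin copies were named outside that rule, after their values were seen. Symbols, coordinates and transcripts came from GENCODE M21 (GRCm38), which matched 55137 of 55397 identifiers, and promoters from RefSeq.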

Additional observations from a re-analysis of the deposited data

How the results depend on the processing

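Bmp6, Hfe and Hamp2 kept their calls in all 16 alternatives. Leaving out 1 library gave log2 fold changes of 2.03 to 3.14 for Hamp, -0.91 to -0.75 for Tfrc, 0.93 to 1.47 for Tfr2, 0.75 to 0.92 for Fth1 and 1.57 to 1.74 for Ftl1, with the lost calls named beside each gene above. Without 1 Control library the lone Control is assumed to vary like the Prox1 OE libraries, and fewer samples enter the fit. Without Control replicate 1, 2 members rose and 1 fell, beside 3.98% and 2.79% of all genes tested. Trf passed with the total count as library size (0.66, adjusted p 0.039), limma without the trend (1.09, 0.02), edgeR (1.11, 0.011) and DESeq2 (1.10, 7.9e-09). The total count lowered the median of all genes to -0.44, against -0.039 to 0.013 otherwise, and called 1475 genes higher and 6833 lower in limma, against 2933 and 2769. With it Slc40a1 was at -0.056 and Aco1 at -0.018, both turned in direction, Fth1 lost its call (0.41, limma adjusted p 0.07), and 16 pathway genes rose and 31 fell. Leaving out 1 library gave 8 to 44 pathway genes higher and 2 to 23 lower, while over all genes 3.98% to 21.9% were called higher and 2.79% to 21.9% lower. The cause of these shifts was not tested.

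The labels do not say what the replicate numbers share, and same-numbered libraries had correlated deviations of 0.14 and 0.016. With the replicate block, which drops Prox1 OE replicate 3, 6 members rose and 2 fell, beside 15.6% and 15% of all genes tested, and Hamp had a log2 fold change of 2.24. Among the pathway genes 37 rose and 12 fell. With 2 Control libraries the spread of that group is poorly known.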
